A study of Mus musculus with 12 samples.

Results

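Feeder-matched Tin2 S341X embryonic stem cell libraries were compared with wild-type libraries across all genes. The series holds RNA-seq of 12 libraries from 4 mouse embryonic stem cell lines, 3 libraries a line. The wild-type lines are WT-1 and WT-2, and the mutant lines, Mut-1 and Mut-2, have the genotype Tin2 S341X in their labels. The labels give a C57BL/6 background and a blastocyst origin for every line. All 4 lines grew on mouse embryonic fibroblasts (MEFs), a feeder layer, in medium with serum and LIF, the cytokine that keeps mouse stem cells undifferentiated. RNA was taken from these cultures as they were, so each library can hold feeder RNA. The mutant libraries were chosen by their low share of counts on fibroblast marker genes: Mut-1 replicates 2 and 3 and Mut-2 replicate 3. With the 6 wild-type libraries this gave 9 of the 12 libraries, and 3 mutant libraries (Mut-1 replicate 1, Mut-2 replicates 1 and 2) were left out. In the design text the libraries within a line are technical replicates, so the mutant group stands for 2 lines, 1 of them through a single library.

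Tinf2 encodes TIN2, the subunit at the centre of shelterin, the protein complex that coats telomeres. TIN2 holds together TRF1 (gene Terf1) and TRF2 (Terf2), which bind the telomeric repeat, and TPP1 (Acd), which carries POT1 on the single-stranded end. Shelterin keeps chromosome ends from being treated as DNA breaks and regulates telomerase. Cells that maintain telomeres by recombination instead do so by the pathway known as ALT, which the series names in its title. In mouse embryonic stem cells, a small and changing fraction of cells also switches on genes of the 2-cell embryo such as the Zscan4 family, which has been tied to telomere maintenance.

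The codon that the genotype label names is shown because it places the mutation in the gene. In transcript Tinf2-201 of GENCODE M21 (GRCm38), the codon of that number is a serine codon (AGT) in exon 7 of 9, at chr14:55679924-55679926 on the minus strand. It lies after 82.1% of the 414 codons. The reference sequence around it, spliced and 5′ to 3′ with that codon in capitals, reads:
Tinf2 around the named codon: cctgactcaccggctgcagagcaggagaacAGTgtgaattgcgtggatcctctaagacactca
The deposited counts do not carry the base change itself, so the labels' genotype was checked here only through the level of Tinf2.

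Library totals of the 9 libraries ran from 14766477 to 17891894 counts, and 22713 to 23608 genes had at least 1 count. Replicates 1 and 2 of WT-1 were nearly alike: a chi-square over genes, divided by its degrees of freedom, came to 1.65 for this pair, whereas other pairs within lines gave 12 to 42.6. WT-2 replicate 1 stood apart from the other wild-type libraries at several genes and had the lowest median of the 2-cell-stage list. Embryonic stem cell markers were high in all 9 libraries: Pou5f1, which encodes OCT4, had 240 to 387 CPM (counts scaled to each library's normalised total) in wild type and 302 to 362 in the matched mutants. Sox2 had a median of 399 CPM in wild type and 404 to 436 CPM in the matched mutants. Of 12 blood and macrophage markers 7 could be tested, and Ptprc (CD45), Adgre1 and Tyrobp were too low. Of 12 endothelial markers 10 could be tested, and Cdh5 was too low. The summed level of the blood list was 240 to 378 CPM in wild type and 297 to 397 CPM in the matched mutants, and that of the endothelial list 263 to 342 and 222 to 347 CPM, so both overlapped. Laptm5 alone had 192 to 329 CPM in wild type, so the blood sum says little about its other members. Single genes did not overlap: Lyz2 and Tie1 lay above all wild-type libraries and Plvap below. Their adjusted p-values were 0.223, 0.453 and 0.218 (edgeR across libraries), and DESeq2 called Plvap. Over all genes tested 4.07% lay wholly above and 2.56% wholly below.

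The feeder share, the part of all counts that falls on 36 fibroblast genes, is the value that chose the mutant libraries. It was 0.9497% in Mut-1 replicate 2, 0.7951% in Mut-1 replicate 3 and 1.023% in Mut-2 replicate 3. The wild-type libraries had 0.8023%, 0.833% and 1.063% in WT-1 and 0.9782%, 1.006% and 0.7596% in WT-2, so that all 3 matched libraries lay inside the wild-type range. The left-out libraries had 1.646% to 1.942%. The share just inside the rule was therefore 1.023% and the share just outside it 1.646%. At this depth the counting error is small: the 95% Wilson interval of the Mut-2 replicate 3 share was 1.018% to 1.028%.

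**Figure D1:**
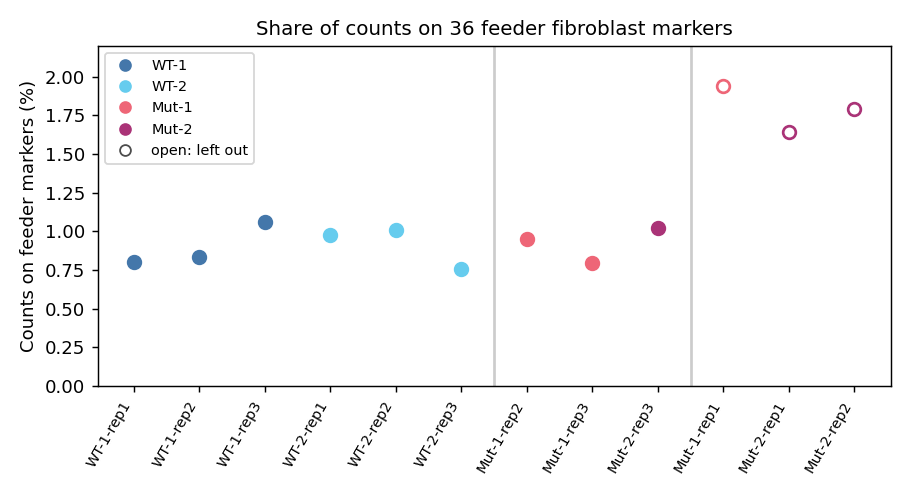
Percentage of each library's counts on the 36 fibroblast marker genes, with 1 point a library and the libraries grouped by line. The 3 matched mutant libraries lie between 0.7951% and 1.023%, inside the wild-type range of 0.7596% to 1.063%, and the 3 left-out libraries lie at 1.646% or more.

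Matching the sum did not match every fibroblast gene in every library. The median over the tested fibroblast genes, relative to the wild-type mean on a log2 scale, was 0.112 in Mut-1 replicate 2, -0.163 in Mut-1 replicate 3 and 0.432 in Mut-2 replicate 3. The wild-type libraries ran from -0.202 to 0.313, so Mut-2 replicate 3 lay above all of them. Col3a1, a fibrillar collagen, had 156, 109 and 176 CPM in the matched mutants, in the order given above, and 99 to 145 CPM in wild type. These values are a description with no test, because the list chose the libraries.

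The comparison was fitted in 2 ways. In the first, the counts of a line were summed and a test was made of 2 mutant against 2 wild-type lines. In the second, the 3 mutant libraries were compared with the 6 wild-type libraries, and its p-values measure only the spread between libraries. Across lines, 0 of 18090 genes passed an adjusted p of 0.05 (0% called; edgeR quasi-likelihood test, Benjamini-Hochberg). The smallest adjusted p was 0.161, 1181 genes had an unadjusted p under 0.05 (780 higher, 401 lower), and DESeq2 called 55 genes on the same line totals. Across libraries, 27 of 16181 genes passed (0.167% of those tested), 26 of them higher in the mutants (0.161%) and 1 lower (0.00618%). In all that follows, "rose" and "fell" refer to the fit across libraries.

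The count across libraries depended on single libraries. Without Mut-1 replicate 3 it was 1, and the gene that remained was Tinf2. Without Mut-1 replicate 2 it was 8 and without Mut-2 replicate 3 it was 79. Leaving out WT-1 replicate 1 gave 10 genes, WT-1 replicate 2 gave 11, WT-2 replicate 1 gave 18, WT-2 replicate 2 gave 11 and WT-2 replicate 3 gave 17. With the replicate number as a block 5 genes passed: Tinf2, Shisa2, Spry2, Zfp961 and Terf1. The other 22 lost their call, at adjusted p-values of 0.0645 to 0.288. No mutant replicate 1 is among the libraries, so the mutant difference in the block fit rests on wild-type replicates 2 and 3. Those wild-type replicates alone, without a block, gave 7 genes, an alternative chosen after seeing the data. Calls lost with the block therefore also reflect fewer wild-type libraries, and the part of the replicate number in them was not tested. Counting WT-1 replicates 1 and 2 as 1 library gave 11, and the feeder share as a covariate gave 12.

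Non-overlap, where each of the 3 mutant libraries lies beyond each of the 6 wild-type libraries, was the second description used. Of the 16181 genes tested, 658 lay wholly above wild type (4.07%) and 415 wholly below (2.56%). Among the 13095 genes of at least 2 CPM on average, the numbers were 550 (4.2%) and 368 (2.81%). A fold change above 0 was found for 48.4% of the genes tested. In the same fit 1015 genes were higher (6.27%) and 681 lower (4.21%) at an unadjusted p under 0.05, and DESeq2 called 240 genes higher (1.48%) and 65 lower (0.402%). These shares are the background for the counts of list members.

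Tinf2 was low in each matched mutant library. It had 25.2 and 20.1 CPM in Mut-1 replicates 2 and 3 and 19.8 CPM in Mut-2 replicate 3. Wild-type libraries had 57.4 to 69.5 CPM with a median of 62.1. The gene lies at chr14:55674689-55681820 on the minus strand. The log2 fold change was -1.53 ± 0.121 (SE), with an adjusted p of 0.000538 across the 9 libraries and 0.161 across the line totals (edgeR). Tinf2 passed across libraries in each of the 20 alternatives that tested it. The left-out mutant libraries had 27.3 to 29.7 CPM, also below wild type.

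Of the other subunits, only Terf1 passed. Terf1 encodes TRF1, which binds double-stranded telomeric repeats and is a direct partner of TIN2. Its level was 169 and 166 CPM in the Mut-1 libraries and 146 CPM in the Mut-2 library. In wild type it ran from 76.2 to 98.5 CPM with a median of 81.5, so the groups did not overlap. Terf1 rose by 0.907 ± 0.112 (SE) on the log2 scale, with an adjusted p of 0.00787 across libraries and 0.442 across line totals (edgeR). The adjusted p was 0.0835 without Mut-1 replicate 2 and 0.0929 without Mut-1 replicate 3. The left-out libraries had 115, 138 and 146 CPM. Terf1 lies on chromosome 1 at 15805646 to 15844052, away from Tinf2.

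The remaining 8 genes of the shelterin and telomere-capping list did not pass. Terf2, the TRF2 gene, had a log2 fold change of -0.232 with levels of 44.5, 40.7 and 34.4 CPM against 38 to 52.6 CPM in wild type. Acd and the POT1 genes Pot1a and Pot1b lay at -0.0146, -0.0786 and 0.0193. Ctc1, of the CST complex that helps copy the telomeric end, had 135, 139 and 153 CPM, below all wild-type libraries at 158 to 262, yet its adjusted p was 0.503. Its highest wild-type value came from WT-2 replicate 1. Tert, the catalytic subunit of telomerase, had 15.2, 13.8 and 12.5 CPM against 17.4 to 33.5 CPM in wild type, with a log2 fold change of -0.637 and an adjusted p of 0.308. WT-2 replicate 1 again held the highest value.

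**Figure D2:**
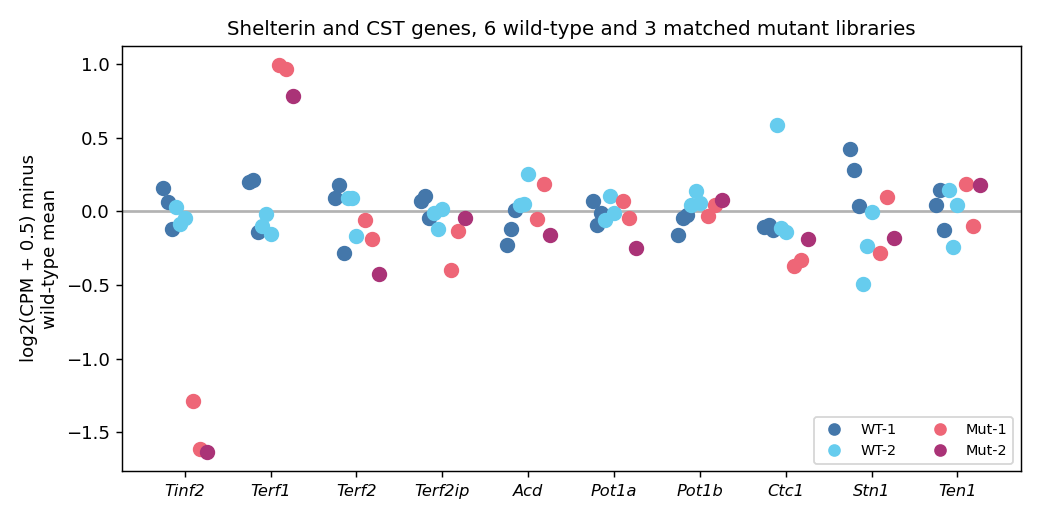
Log2(CPM + 0.5) of 10 shelterin and CST genes in each of the 6 wild-type and 3 matched mutant libraries, as the difference from the wild-type mean (grey line at 0), with 1 point a library coloured by line. All 3 mutant points lie below the wild-type points in Tinf2 and Ctc1 and above them in Terf1, and in the other 7 genes the groups overlap.

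The genes that rose most, predicted ones apart, are described in turn. Aox3, an aldehyde oxidase at chr1:58113130-58200698, had 7.39, 7.19 and 5.93 CPM in the matched mutants and 1.39 to 2.23 CPM in wild type. It rose by 1.85 ± 0.211 (SE) with an adjusted p of 0.00564 (edgeR across libraries), which became 0.0645 with the replicate number as a block and 0.0676 without Mut-1 replicate 3. Its left-out libraries had 4.97 to 10.3 CPM, so it was above wild type in all 6 mutant libraries. Foxd1, a forkhead transcription factor, had 4.97, 7.19 and 9.13 CPM against 1.45 to 3.03 CPM. Its adjusted p of 0.0457 was just under the threshold, and it was 0.235 with the replicate block. Zfp961, a zinc-finger gene at chr8:71951038-71993792, had 102, 110 and 106 CPM against 47 to 64 CPM in wild type. It rose by 0.912 ± 0.105 (SE) with an adjusted p of 0.00564, and it passed in 20 of 21 alternatives. The exception was the fit without Mut-1 replicate 3, with an adjusted p of 0.0676.

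Shisa2 (chr14:59625308-59631660) and Spry2 (chr14:105891947-105896819) lie on the chromosome of Tinf2. Shisa2, an endoplasmic reticulum protein that holds back FGF and Wnt receptors, had 27.6, 37.2 and 41 CPM in the matched mutants against 10.4 to 16 CPM in wild type. It rose by 1.41 ± 0.161 (SE), with an adjusted p of 0.00564 across libraries (edgeR) and 0.0277 with the replicate block. Spry2, a feedback inhibitor of receptor tyrosine kinase signalling, had 216, 201 and 245 CPM against 64 to 112 CPM. It rose by 1.3 ± 0.151 (SE), with an adjusted p of 0.00564 across libraries, 0.0417 with the block and 0.161 across line totals (edgeR). Without Mut-1 replicate 3 the adjusted p was 0.0676 for Shisa2 and 0.0565 for Spry2.

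Of the other genes named, Xkr6, Uggt2, Nefl and Tgm1 also lie on chromosome 14. Nefl, the neurofilament light chain, had 21.4, 31.2 and 26.5 CPM against 8.47 to 16.5 CPM in wild type. Tgm1, a transglutaminase that cross-links proteins in epidermis, had 129, 151 and 105 CPM against 58.9 to 73.2 CPM and rose by 0.949 on the log2 scale. Uggt2, which re-glucosylates misfolded glycoproteins, had 34.9, 32.9 and 22.8 CPM against 9.73 to 15.7 CPM. All 4 lost their call with the replicate block, with adjusted p-values of 0.105 to 0.151. Slc4a5, a sodium bicarbonate transporter gene on chromosome 6, had 31.1, 29.4 and 22 CPM against 9.25 to 15.2 CPM and lost its call in the same way, at 0.151.

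Ap5z1 passed mainly through 1 line. This subunit of an endosomal adaptor complex had 87.7 and 75 CPM in Mut-1 but 36.6 CPM in Mut-2, against 23 to 31.3 CPM in wild type. Its adjusted p was 0.0457 across libraries and 0.213 with the replicate block (edgeR).

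**Figure D3:**
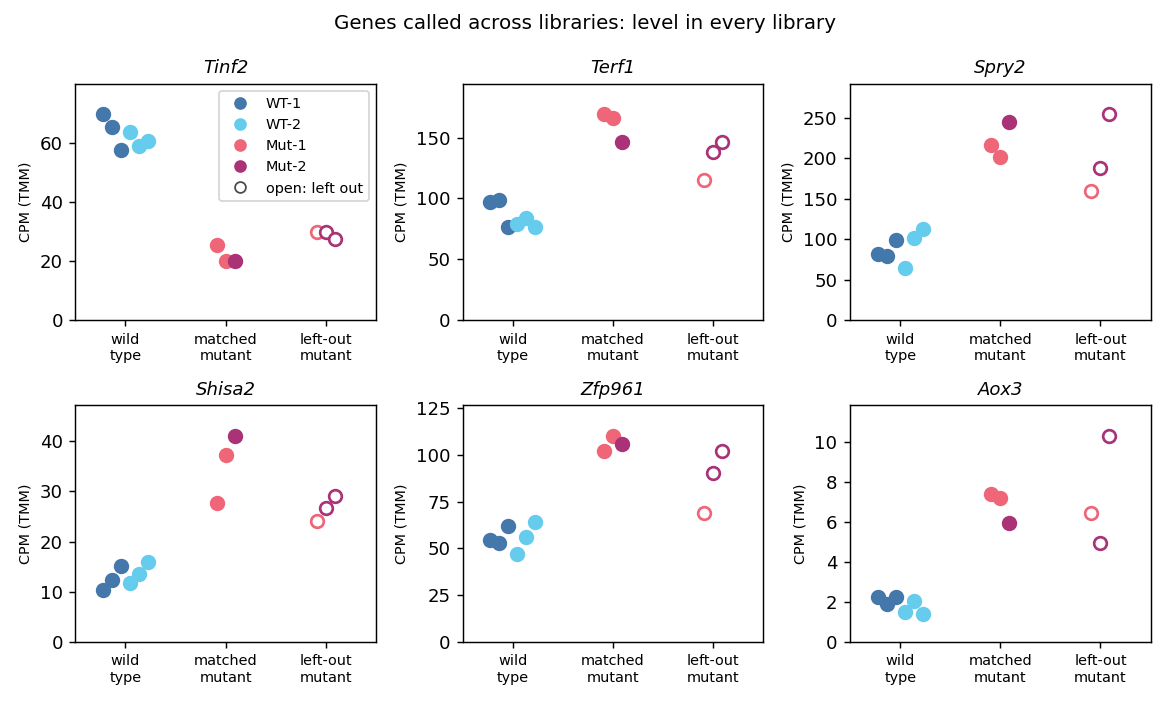
CPM of 6 genes in all 12 libraries on linear axes that start at 0, with 1 point a library coloured by line and open circles for the left-out mutant libraries. In Tinf2 the matched mutants lie at 19.8 to 25.2 CPM against 57.4 to 69.5 in wild type, and in Terf1, Spry2, Shisa2, Zfp961 and Aox3 they lie above each wild-type library.

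The other genes that rose, given here to complete the count, were Tpt1, Ripk3, Ubac2, Ajuba, Rps24, Tfeb, Polr3d, Psmb5, Uchl3 and Diaph3 among known genes. None of these 10 passed with the replicate block. Tpt1 encodes a very abundant translation-associated protein. Tpt1-ps3, a copy on chromosome 6, also passed. Reads counted on the copy cannot be told apart from Tpt1 reads, because its 519 bases are identical to Tpt1 in GENCODE M21. The first 60 bases from the Tpt1 start codon, shown because both genes share them with 0 differences, are:
Tpt1 and Tpt1-ps3: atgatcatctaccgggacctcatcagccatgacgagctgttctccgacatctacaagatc
Tpt1 had 2240, 2780 and 2760 CPM against 1340 to 1690 CPM in wild type, and Tpt1-ps3 had 156, 201 and 205 CPM against 95.1 to 122 CPM. The values of the copy cannot be read as a level of its own. With the replicate block the adjusted p was 0.0664 for Tpt1 and 0.128 for Tpt1-ps3.

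Ripk3, a kinase of necroptotic cell death, had 92.2, 102 and 80.2 CPM against 49.4 to 57 CPM, and its adjusted p was 0.0115, or 0.105 with the replicate block. Tfeb, a transcription factor for lysosome genes, lies on chromosome 17 and had 75, 67.1 and 78.4 CPM against 37.7 to 53.8 CPM. Its adjusted p was 0.0457, or 0.265 with the replicate block, and it passed in 6 of 21 alternatives. The mean difference from wild type was 0.762 on a log2 scale in the matched and 0.136 in the left-out libraries. Gm15721, a predicted gene on chromosome 5, had the largest fold change of the genes that passed, at 3.08, with 2.76, 2.29 and 2.51 CPM against 0.118 to 0.463 CPM in wild type. Its adjusted p was 0.0645 with the replicate block. All wild-type values of Gm15721 lay near the floor, so the filter on low counts kept it through the mutant libraries alone. Its fold change is uncertain at that level, and its call is not independent of the filter.

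Chromosome 14 carried most of the genes that rose. Of the 25 genes that rose and had a position, 15 were on chromosome 14 and 10 elsewhere. The 10 include Tpt1-ps3, whose counts cannot be told apart from those of Tpt1 on chromosome 14. In the genes of at least 5 CPM on that chromosome, log2(CPM + 0.5) relative to the other autosomes was shifted by 0.36 and 0.375 in the Mut-1 libraries and 0.417 in the Mut-2 library. Wild-type libraries ran from -0.0411 to 0.0493. The mean shift of the matched libraries was 0.384, a fold of 1.31, and 375 of 392 genes were higher (95.7%). On the other autosomes the mean shift ran from -0.148 to 0.0505. Of the tested genes on chromosome 14, 176 of 520 lay wholly above wild type (33.8%), against 463 of 15315 elsewhere (3.02%). These are medians and counts over genes, with no test over lines. Without the genes of chromosome 14, 6 genes passed, with Tpt1-ps3 still among those tested.

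In the left-out libraries, of higher feeder share, the chromosome 14 shift was 0.318, 0.423 and 0.445, a range that holds the 3 matched values. Tinf2 lies on this chromosome and fell. The part of the shift in the values of other single genes on chromosome 14 was not tested.

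**Figure D4:**
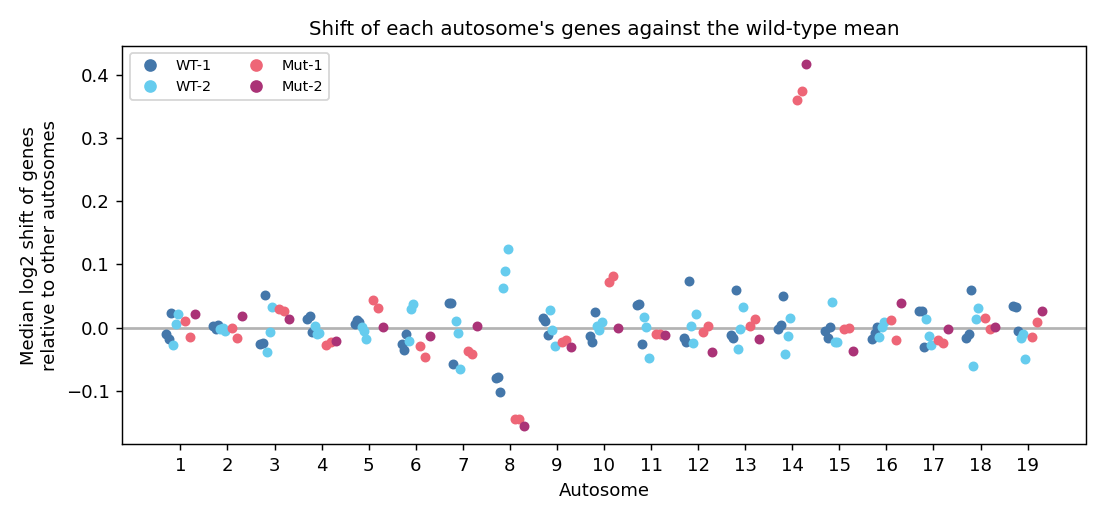
Median over an autosome's genes (at least 5 CPM) of log2(CPM + 0.5) minus the wild-type mean, relative to all other autosomes, with 1 point for each of the 6 wild-type and 3 matched mutant libraries. On chromosome 14 the mutant libraries lie at 0.36 to 0.417 and the wild-type libraries at -0.0411 to 0.0493.

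Chromosome 8 was lowest of the other autosomes. The matched libraries lay at -0.144, -0.144 and -0.156, below both wild-type lines, but the wild-type lines also differed, with WT-1 at -0.102 to -0.078 and WT-2 at 0.0618 to 0.124. On chromosome 8, 60 of 844 tested genes lay wholly below wild type (7.11%). The distance to WT-1 was therefore smaller than the distance to WT-2.

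Only Tinf2 fell. The other genes named for the largest decreases had groups that did not overlap, and none of them passed. Rhox5, an X-linked homeobox gene of the reproductive tract and early embryo, had 1.86, 1.8 and 0.906 CPM against 3.07 to 7.73 CPM in wild type. Its log2 fold change was -1.98 ± 0.349 (SE) with an adjusted p of 0.0541 (edgeR). Lemd1, a cancer-testis gene, had 1.24, 1.24 and 0.837 CPM against 2.38 to 3.52 CPM, with an adjusted p of 0.067. Snai3, Fam57b and Katnal2 were lower in all matched libraries, but WT-2 replicate 1 was far above the other wild-type libraries in each, with 14.7, 5.23 and 4.45 CPM.

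The 2-cell-stage list had the highest median of the lists. It holds genes of the 2-cell embryo, among them Zscan4 family members. Of its 30 tested members, 29 had a fold change above 0 and 21 lay wholly above wild type, against 4.07% of all genes tested, and 0 lay wholly below. In edgeR across libraries 0 passed, 19 had an unadjusted p under 0.05, and DESeq2 called 4: Gm8300, Gm2056, Gm4340 and Gm5662. The median log2 fold change was 1.1. The list was chosen with earlier results of these data known, and its members include near-identical copies whose counts are uncertain and are not independent of each other. Of 40 members in the table, 30 passed the filter on low counts, which a gene can pass through the 3 mutant libraries alone. The counts of members above 0 and above wild type are therefore not independent of the filter. How many members were kept through the mutant libraries alone was not counted.

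Per library, the median of the 2-cell-stage list relative to the wild-type mean was 0.914 and 1.06 in Mut-1 replicates 2 and 3 and 1.05 in Mut-2 replicate 3. In wild type it was 0.278 to 0.58 in WT-1 and -0.904 to -0.26 in WT-2, so that every matched library lay above every wild-type library while the wild-type lines also differed from each other. The left-out libraries had 0.353, 0.671 and 1.49. Averaged over libraries before the median over genes was taken, the matched mutants had 1.01 and the left-out ones 0.806. Zscan4f, a zinc-finger gene of the Zscan4 cluster, had 3.87, 4.71 and 3.56 CPM against 0.481 to 2.65 CPM in wild type, with an adjusted p of 0.251. Gm5662 had 16.2, 19 and 17.3 CPM against 2.88 to 11.2 CPM, with an adjusted p of 0.154. In both, all 3 matched libraries were above each wild-type library.

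Of the FGF-ERK feedback list, 1 of 21 tested genes passed, Spry2, on chromosome 14. Spry2, Il17rd and Phlda1 lay wholly above wild type. Il17rd, an FGF receptor antagonist that is also on chromosome 14, had 105, 88.3 and 91.4 CPM against 51.6 to 75.8 CPM, with an adjusted p of 0.0782. Phlda1, on chromosome 10, had 5.32, 6.63 and 5.93 CPM against 2.14 to 5.02 CPM, with an adjusted p of 0.262. The list's median fold change was 0.223.

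In the naive pluripotency list, 0 of 26 genes passed (edgeR), 4 higher and 2 lower had an unadjusted p under 0.05 (6.27% and 4.21% over all genes), and DESeq2 called Klf5. The list had a median of 0.0533 and 16 members above 0, against 48.4% of all genes tested. Klf5, a Krüppel-like factor of the naive network, on chromosome 14, had 185, 191 and 171 CPM against 94.2 to 147 CPM, with an adjusted p of 0.123. Nr0b1, an orphan nuclear receptor gene on the X chromosome, had 234, 206 and 237 CPM against 58 to 169 CPM, and the 58 came from WT-2 replicate 1. In the formative and primed list, 0 of 15 passed (edgeR; DESeq2 also 0), and 4 had an unadjusted p under 0.05, all higher. Its gene Zic2, also on chromosome 14, had 66.3, 87.5 and 88.5 CPM against 27 to 64.2 CPM, with an adjusted p of 0.227. Nanog had 647, 999 and 873 CPM against 533 to 1010 CPM, so that the groups overlapped.

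In the lineage lists, non-overlapping genes are counted beside 4.07% above and 2.56% below wild type over all genes. In edgeR 0 primitive endoderm, 0 mesoderm, 0 Hox and 0 trophectoderm genes passed. An unadjusted p under 0.05 was found for 2 of 18 endoderm, 1 of 14 mesoderm and 5 of 26 Hox genes, all higher. In the trophectoderm list 1 of 9 was higher and 1 lower. Over all genes these shares were 6.27% higher and 4.21% lower. DESeq2 called Tfap2c alone of these 4 lists. In the neural list 1 of 15 passed, Nefl, 3 higher genes had an unadjusted p under 0.05, and DESeq2 called Nefl and Nefm. Without overlap, primitive endoderm had 1 of 18 (Srgn), neural had 2 of 15 (Nefl and Nefm), and primitive streak and mesoderm had 0 of 14. Nefm, the medium neurofilament chain, had 5.94, 5.58 and 8.71 CPM against 1.8 to 3.9 CPM, with an adjusted p of 0.0885. The annotated span of Nefl lies inside that of Nefm on chromosome 14, on the opposite strand. The strand setting is not stated, and whether reads of either gene were counted on the other was not tested. Hox genes had 2 of 26, Hoxb9 and Hoxc10, and the trophectoderm list 2 of 9, of which Cdx2 was above and Tfap2c below wild type. Tfap2c, a trophoblast and germline transcription factor, had 36, 46.2 and 44.5 CPM against 50.9 to 64 CPM. Of all these members Nefl alone passed.

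Several lists lay closer to wild type in the matched than in the left-out libraries, a difference that was not tested. The median over genes of the difference from wild type, averaged over libraries, was 0.265 in the matched and 0.978 in the left-out libraries for secreted inflammatory factors, and 0.165 and 0.646 for Hox genes. It was 0.13 and 0.566 for MHC class I and antigen processing, 0.347 and 0.681 for interferon and nucleic-acid sensing, and 0.132 and 0.466 for primitive endoderm. For DNA replication it was -0.0851 and -0.393, and for mitosis -0.0758 and -0.283. Other lists lay farther from wild type in the matched libraries, such as the mitochondrial genome at 0.318 and 0.0794. Formative and primed pluripotency lay at 0.281 and 0.102, and trophectoderm at -0.172 and -0.106. In the formative and primed list the matched Mut-1 libraries lay at 0.128 and 0.0615, inside the wild-type range of -0.144 to 0.133. Mut-2 replicate 3 lay at 0.384. In the trophectoderm list the matched Mut-1 libraries lay at 0.127 and 0.214 and Mut-2 replicate 3 at -0.623. Most matched libraries are Mut-1 and most left-out ones Mut-2, so line and feeder share are mixed in these differences. The left-out libraries had a feeder share of 1.646% to 1.942%. Fewer cells of a type and less RNA per cell cannot be told apart in bulk libraries, and the part of feeder cells in these differences was not tested here.

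**Figure D5:**
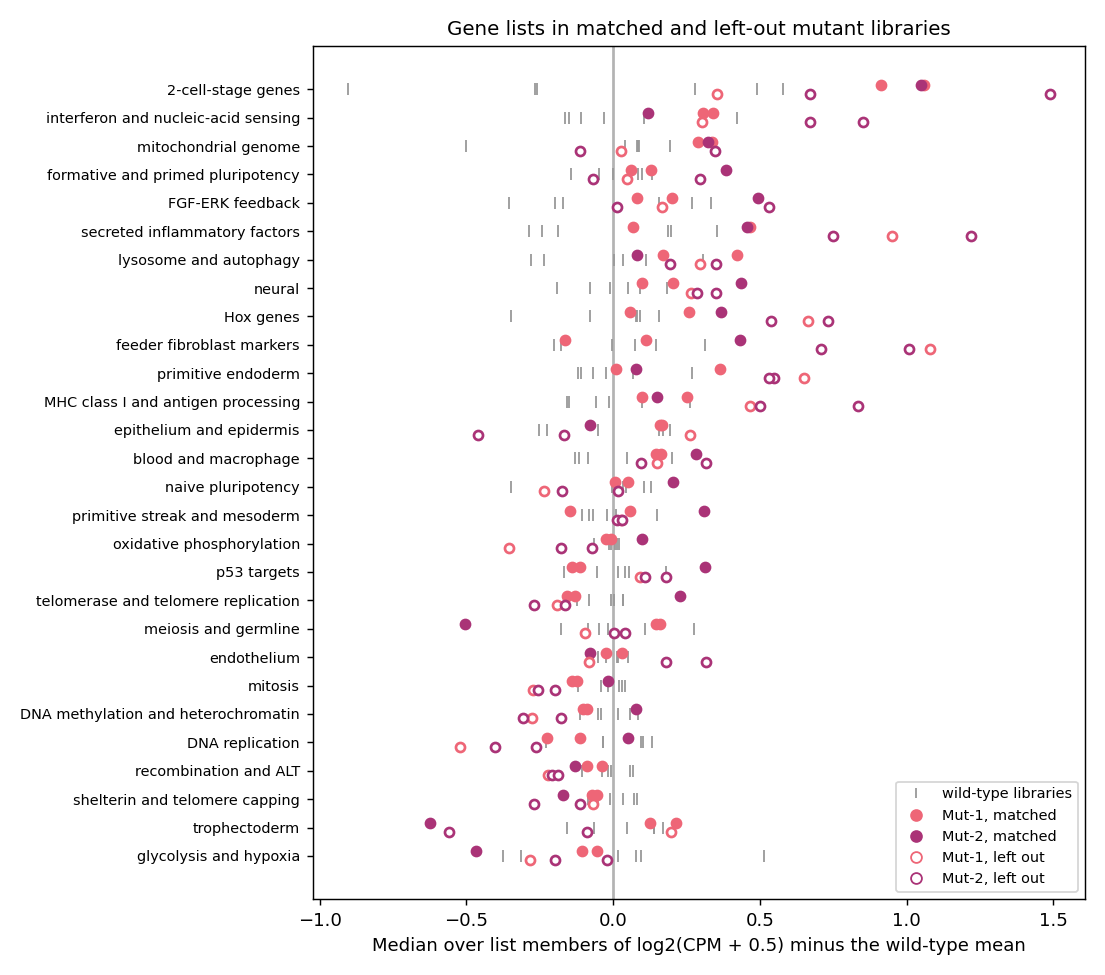
Median over the members of each gene list of log2(CPM + 0.5) minus the wild-type mean, with grey ticks for wild-type libraries, filled circles for matched and open circles for left-out mutant libraries. Secreted inflammatory factors lie at 0.0677 to 0.468 in the matched libraries and at 0.749 to 1.22 in the left-out ones, while 2-cell-stage genes lie at 0.914 to 1.06 and at 0.353 to 1.49.

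In the interferon and nucleic-acid sensing list, 0 of 36 passed (edgeR), 5 had an unadjusted p under 0.05, all higher (6.27% over all genes), and DESeq2 called Irf9. The genes Irf9, Lgals3bp and Samd9l lay wholly above wild type. Irf9, a subunit of the ISGF3 transcription factor, is on chromosome 14 and had 56.7, 60.7 and 59.5 CPM against 23.7 to 45.2 CPM, with an adjusted p of 0.0842. Isg15 overlapped, with 23.5, 29.9 and 31.1 CPM against 8.41 to 24.3 CPM. In the MHC class I list, 0 of 14 passed, 4 had an unadjusted p under 0.05, all higher, and DESeq2 called H2-D1. H2-D1, a classical class I heavy chain, had 117, 133 and 126 CPM against 73.7 to 102 CPM with an adjusted p of 0.105, and B2m, its light chain, had 173, 180 and 223 CPM against 102 to 156 CPM. H2-K1 overlapped wild type.

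In the meiosis and germline list, 0 of 35 passed (edgeR), and DESeq2 called Stag3, Hsf2bp and Rhox5. An unadjusted p under 0.05 was found for 2 higher and 6 lower genes, and 5 lay wholly below wild type (14.3%, against 2.56% of all genes tested): Stag3, Hormad1, Hsf2bp, Ccdc155 and Rhox5. Stag3, the meiotic cohesin subunit, had 30.9, 31.6 and 24.3 CPM against 44.2 to 62.1 CPM, with an adjusted p of 0.0541. Hsf2bp, which acts in meiotic recombination, had 41.5, 49.4 and 37.8 CPM against 57.9 to 79.6 CPM, with an adjusted p of 0.067. The median of the list was -0.0313, near that of all genes.

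In the cell-cycle lists most genes lay below 0, as 33 of 43 replication and 21 of 26 mitosis genes did, with a fold change above 0 in 48.4% of all genes. Per library, the replication median relative to the wild-type mean was -0.113, -0.224 and 0.0497 in the matched mutants. Wild-type libraries ran from -0.228 to 0.131, so every matched library lay inside. The mitosis median was -0.123, -0.139 and -0.0168, against -0.119 to 0.039 in wild type. Of 43 DNA replication genes, 0 passed (edgeR; DESeq2 also 0), 1 higher and 7 lower had an unadjusted p under 0.05, and the median was -0.0913. Gins2, a subunit of the replicative helicase, on chromosome 8, had 56.7, 57.8 and 61.8 CPM against 62.6 to 78.3 CPM, so the highest mutant value lay just under the lowest wild-type value. Rfc3, a subunit of the clamp loader on chromosome 5, had 61.9 and 68.8 CPM in Mut-1 and 49.8 CPM in Mut-2 against 35.3 to 51.8 CPM. Of 26 mitosis genes 0 passed (edgeR; DESeq2 also 0), 4 had an unadjusted p under 0.05, all lower, and the median was -0.0859. Bub1, a spindle checkpoint kinase, had 144, 139 and 135 CPM against 149 to 188 CPM, with an adjusted p of 0.387.

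Of 27 p53 targets, 0 passed (edgeR), 1 higher and 2 lower had an unadjusted p under 0.05, and the median was 0.0123. DESeq2 called Eda2r, a receptor of the tumour necrosis factor family on the X chromosome. It had 24, 23.6 and 17.2 CPM against 28.6 to 44.3 CPM, with an adjusted p of 0.147 in edgeR, and the groups did not overlap. Tnfrsf10b, a death receptor gene on chromosome 14, had 71.5, 67.8 and 104 CPM against 52.2 to 79.6 CPM, so the groups overlapped. Of 32 genes of DNA methylation and heterochromatin, 0 passed (edgeR; DESeq2 also 0) and 1 had an unadjusted p under 0.05. Dnmt1, the maintenance methyltransferase, had 306, 280 and 328 CPM against 295 to 394 CPM, and Suz12, a subunit of Polycomb repressive complex 2, had 299, 296 and 334 CPM against 255 to 282 CPM.

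In the recombination and ALT list, 0 of 35 passed (edgeR; DESeq2 also 0). An unadjusted p under 0.05 was found for 1 higher and 6 lower genes (6.27% and 4.21% over all genes). Its members above 0 were 10, against 48.4% of all genes tested. Asf1b, Blm, Palb2 and Xrcc3 lay wholly below wild type, 11.4% of the list against 2.56% of all genes. Asf1b, a histone chaperone on chromosome 8, had 18.2, 27 and 24.6 CPM against 28.1 to 41.6 CPM, with an adjusted p of 0.262. Blm, the helicase mutated in Bloom syndrome, had 96.8, 88.2 and 98.1 CPM against 104 to 129 CPM, with an adjusted p of 0.281. The list median was -0.0966. Per library, the median relative to the wild-type mean was -0.0363, -0.0883 and -0.13 in the matched mutants. Wild-type libraries ran from -0.106 to 0.0682.

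In the metabolic lists, glycolysis and hypoxia had 0 of 27 genes that passed (edgeR, DESeq2 also 0) and 2 lower genes at an unadjusted p under 0.05. The list had 3 members above 0, against 48.4% of all genes tested, and a median of -0.23. Per library, its median relative to the wild-type mean ran from -0.375 to 0.515 in wild type, with 0.515 in WT-2 replicate 1. The Mut-1 libraries lay inside that range, at -0.0541 and -0.107, and Mut-2 replicate 3 below it, at -0.468. Pdk1, a kinase that inhibits pyruvate dehydrogenase, had 114, 109 and 97 CPM against 121 to 181 CPM. The mitochondrial genome list had 0 of 14 that passed (edgeR; DESeq2 also 0) and a median of 0.303. At an unadjusted p under 0.05 were 3 genes, all higher (6.27% over all genes). Its members above 0 were 13, against 48.4% of all genes tested. Wholly above wild type were 4, or 28.6% of the list against 4.07% of all genes. Mitochondrial genes are cut from long shared transcripts, so they are not independent of each other. mt-Nd6, a subunit of complex I, had 436, 469 and 409 CPM against 260 to 393 CPM in wild type. The median of the list was lowest in WT-2 replicate 1, at -0.501. Of the lysosome and autophagy list, 1 of 25 passed, Tfeb, whose call was lost with the replicate block. Ctsb, cathepsin B, on chromosome 14, had 549, 623 and 624 CPM against 365 to 479 CPM, with an adjusted p of 0.0782.

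Of 29 nuclear genes of oxidative phosphorylation 0 passed (edgeR), 2 higher had an unadjusted p under 0.05, and DESeq2 called Cox6c. This subunit of cytochrome c oxidase had 162, 164 and 160 CPM against 126 to 145 CPM, without overlap. Atp5b, the catalytic subunit of ATP synthase, had 2970 and 3080 CPM in Mut-1 and 2400 CPM in Mut-2, against 2140 to 2400 CPM in wild type.

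The 2 mutant lines were also compared with their same-number wild-type lines, to show whether they differed by the same amount. The numbers of the lines are names and pair nothing. In the difference (Mut-1 against WT-1) minus (Mut-2 against WT-2), 0 of 16181 genes passed (0% called; edgeR), with 1780 genes at an unadjusted p under 0.05, and DESeq2 called 97. The smallest adjusted p was 0.136. Stc2, a secreted glycoprotein, had 50.7 and 51.3 CPM in Mut-1 but 6.62 CPM in Mut-2, against 20.8 to 29.6 CPM in wild type. Slc29a4, a monoamine transporter on chromosome 5, had 47.7 and 52.2 CPM in Mut-1 and 19.5 CPM in Mut-2, against 20.3 to 25.3 CPM. Cdh1, encoding E-cadherin, had 656 and 677 CPM in Mut-1 and 395 CPM in Mut-2, the last below the wild-type range of 549 to 712 CPM. The wild-type lines also differed in Cdh1, with 549 to 554 CPM in WT-1 and 687 to 712 CPM in WT-2. In the opposite direction, Uty and Ddx3y, both on the Y chromosome, differed between the wild-type lines. Uty had 6.42 to 7.59 CPM in WT-1 and 1.31 to 1.68 CPM in WT-2. Its matched mutant values were 0.828, 1.55 and 3.28 CPM. Ddx3y had 13.8 to 17.3 CPM in WT-1 and 4.15 to 5.41 CPM in WT-2, and 7.73, 3.84 and 10.8 CPM in the matched mutants. Erdr1 had 2.62 and 1.92 CPM in Mut-1 but 13.5 CPM in Mut-2, against 2.12 to 3.45 CPM in wild type. Mut-2 stands here on 1 library, and its left-out libraries show the spread within that line. Slc29a4 had 19.9 and 16.2 CPM in them and 45.9 CPM in the left-out Mut-1 library, so that all 3 Mut-1 libraries lay above all 3 Mut-2 libraries. Stc2 had 16 and 20.6 CPM in the left-out Mut-2 libraries and 31.8 CPM in the left-out Mut-1 library, closer together than in the matched ones. Cdh1 had 541 and 452 CPM in the left-out Mut-2 libraries and 525 CPM in the left-out Mut-1 library, so its lines overlapped.

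With all 6 mutant libraries in place of the 3 matched ones, the fit across libraries called 236 of 15702 genes, 186 higher and 50 lower (edgeR), and the fit on line totals called 0 of 18749, with 2447 at an unadjusted p under 0.05. The 2 comparisons share the 6 wild-type libraries and the 3 matched mutant libraries. Nefl differed by 0.407 on a log2 scale in the left-out libraries, and Spry2 by 1.16.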

How the data were processed

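The authors deposited raw counts, whole-number reads per gene with 1 column per library, not normalized. Per the submitters' processing notes the tools were HTSeq 0.6.0, HISAT2 2.1.0, Bowtie2 2.2.3 and bcl2fastq, with the build GRCm38. What each did, which annotation was used and whether strand was counted is not given in the sources used here. Symbols, 31641 in all, were placed on GENCODE M21: 29383 by current name and 133 through an earlier one, 29516 placed in total.

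CPM values were computed with TMM factors over all 12 libraries. Genes were tested with edgeR 4.0.16 (R 4.3.3; quasi-likelihood, TMM, filterByExpr, Benjamini-Hochberg at 0.05) on the line totals, which held 15251613 to 52074216 counts, and across the 9 libraries. DESeq2 1.42.0 and limma 3.58.1 served as alternatives. Nothing in the labels says that libraries of a line came from separate cultures, so p-values across libraries measure a spread that may be technical. The scripts were checked on simulated counts. Shifts by chromosome used genes of at least 5 CPM and a pseudocount of 0.5.

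Each direction gave the 12 genes of at least 2 CPM with the largest fold change among non-overlapping genes, those past the threshold first and predicted genes passed over. Added were Tinf2, the 3 members of smallest p in each list, and 3 genes a direction for the difference between line pairs. The 28 lists held 691 entries, of which 5 were not in the table. Members, libraries and lists were chosen with earlier results of these data known.

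The labels give no meaning to the replicate numbers. Deviations of same-number libraries from their line means correlated at 0.193, 0.369 and 0.622 between WT-1 and WT-2, at 0.222 and 0.263 between WT-1 and Mut-1, and at 0.27 and 0.178 between WT-2 and Mut-1. All 7 were over 0.1, so the numbers were taken to pair the libraries and the values with a replicate block are given with the calls they change, singly or as a range. Libraries of different numbers could correlate as well: WT-1 replicate 1 with WT-2 replicate 2 at 0.348, WT-1 replicate 2 with WT-2 replicate 1 at 0.233, and WT-1 replicate 1 with Mut-1 replicate 2 at 0.266. With 2 libraries the deviations of Mut-1 are mirror images, so the pairing is a hint from the data. This decision was made with the calls of both fits known, and Mut-2 has 1 library and so no deviation. No mutant replicate 1 is among the libraries, so wild-type replicate 1 of either line adds nothing to the mutant difference in the block fit.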

Additional observations from a re-analysis of the deposited data

Results flagged for a closer look

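The wild-type libraries were looked at gene by gene for a single value far from the other 5, in 110 groups of 6 libraries. By chance alone the nominal rate of this rule is about 1 group in 20, a rate that was not measured here. Of the 14 genes marked, 12 were marked by WT-2 replicate 1. Its values were 14.7 CPM for Snai3, 5.23 for Fam57b, 4.45 for Katnal2, 262 for Ctc1, 33.5 for Tert, 12.6 for Sall2, 220 for Bub1b, 79.6 for Tnfrsf10b, 40.9 for Xpc and 27.2 for Ascl2, all above the other wild-type libraries. Its values of 58 CPM for Nr0b1 and 75.2 CPM for mt-Co2 were below them. WT-1 replicate 3 marked Gins2, at 62.6 CPM below the others, and Laptm5, at 329 CPM above them. Without WT-2 replicate 1 the fit across libraries called 18 genes, and without WT-1 replicate 3 it called 21.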

How the results depend on the processing

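The number of genes called across libraries, 27, was 26 with RLE normalization and 33 for genes of at least 2 CPM. It was 63 with no filter on low counts (59 higher, 4 lower), 305 with DESeq2 (240 higher, 65 lower), 46 with 4 line groups (40 higher, 6 lower) and 236 with all 6 mutant libraries. It was 15 with limma-voom and line as a random block, 12 with feeder share as a covariate, 11 with WT-1 replicates 1 and 2 counted as 1 library, 6 without chromosome 14 genes and 5 with the replicate block. With wild-type replicates 2 and 3 alone, an alternative chosen after seeing the data, it was 7. Leaving out 1 library at a time gave 1 to 79. On line totals, where 0 genes passed, no filter gave 255, DESeq2 55, leaving out line WT-1 gave 1, WT-2 gave 2, Mut-1 gave 402 and Mut-2 gave 154; leaving out any 1 of the 8 libraries other than that of Mut-2 gave 0. Mut-2 is a single library here, so leaving out that line and that library is the same. A comparison without a line leaves 1 sample in an arm, whose spread is assumed to be that of the other arm. For the difference between line pairs, also 0, no filter gave 407 and DESeq2 97, and leaving out 1 library at a time gave 0 to 121, the last without WT-1 replicate 3. These alternatives for the line pairs were added after seeing the data. The chromosome 14 shift ran from 0.368 to 0.396. Among 109 named genes and 2268 pairs of gene and alternative, 2093 kept direction and side of the threshold, 107 lost the call, 62 gained it and 6 turned: Cd14 to 0.236 with all 6 mutant libraries, Vwf, Cdh1 and Erdr1 without Mut-2 replicate 3, Krt8 without Mut-1 replicate 3, and Stc2 to -0.416 with 4 line groups. None of these 6 had passed. Leaving out 1 library at a time, Vwf ran from -0.505 to 0.00904, Cdh1 from -0.262 to 0.0917, Erdr1 from -0.302 to 1.5 and Krt8 from -0.0744 to 0.63. The cause of these changes was not tested. The comparison rests on 2 lines a genotype and on 1 library of Mut-2, and deeper sequencing would not change that.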
